A study of Homo sapiens with 2 samples.

Results

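The genes described here are 10 human genes of iron handling, chosen by name from the 60612 genes listed for 2 RNA-seq libraries of L3.6, an established human pancreatic ductal adenocarcinoma (PDAC) cell line. One library came from L3.6-shESE1 cells, which carry a lentiviral shRNA against *ESE1*, and the other from L3.6-shCtrl cells, which the study describes as carrying a non-targeting shRNA and the labels call untreated. *ESE1* is the common name of *ELF3*, which encodes an epithelium-specific ETS transcription factor. The knockdown cells were pooled antibiotic-resistant clones, and which of the study's shRNAs the sequenced cells carried is not given in the sources used here. The comparison asks how the iron handling genes of L3.6 cells differed once *ESE1* was suppressed. The 10 genes were chosen with values of these 2 libraries in view, so their values are a description. With 1 library per condition there is no spread between cultures and no test, and no p-value is given. Intervals cover counting error only, and in bulk RNA fewer transcripts per cell and fewer expressing cells cannot be told apart.

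Iron enters most cells as transferrin bound to the transferrin receptor, is reduced and carried into the cytosol, and is then used, stored in ferritin or exported by ferroportin. The multicopper ferroxidases ceruloplasmin and hephaestin oxidise iron on its way out, so that transferrin can bind it. Iron regulatory proteins (IRPs) bind RNA stem-loops called iron-responsive elements (IREs) when iron is scarce. A bound IRE before the coding region blocks translation, as in the ferritins and ferroportin, whereas bound IREs after the coding region protect the mRNA, as in the transferrin receptor.

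The IRE stem-loops were located in GENCODE release 29 transcripts (GRCh38), because they mark which of the 10 genes the IRPs bind. The search asked for a bulged C, 5 bases, the loop CAGTGN and 5 bases that pair with those before the loop, with G-T pairs allowed, on the transcript strand only. Of 19684 protein-coding genes, 36 (0.183%) held such a site before the coding region and 132 (0.671%) held one after it. Among the 10 genes, *FTH1*, *FTL* and *SLC40A1* held 1 site each before the coding region and *TFRC* held 4 after it. The bulged C and the loop are in capitals in the windows of 30 bases below, each written from its 5′ end.
*FTH1*, chr11:61967573-61967602, minus strand, before the coding region: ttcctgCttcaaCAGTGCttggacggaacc
*FTL*, chr19:48965335-48965364, plus strand, before the coding region: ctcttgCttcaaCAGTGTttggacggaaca
*SLC40A1*, chr2:189580660-189580689, minus strand, before the coding region: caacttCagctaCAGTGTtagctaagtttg
*TFRC* site 1, chr3:196050978-196051007, minus strand, after the coding region: aattatCggaagCAGTGCcttccataatta
*TFRC* site 2, chr3:196050574-196050603, minus strand, after the coding region: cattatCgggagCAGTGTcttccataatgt
*TFRC* site 3, chr3:196050509-196050538, minus strand, after the coding region: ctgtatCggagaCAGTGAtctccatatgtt
*TFRC* site 4, chr3:196050462-196050491, minus strand, after the coding region: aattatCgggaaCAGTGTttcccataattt
The ferritin sites share the same bases from the bulged C to the fifth base of the loop. A match is a sequence description, and a gene without one holds only no run of these letters in its annotated transcripts.

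Total counts were 60786475 in shESE1 and 56853971 in shCtrl. The targeted gene *ELF3* was at 10.7 FPKM in shESE1 and 20.4 FPKM in shCtrl, 1.91-fold lower, with a 95% interval of −0.98 to −0.89 in log2. FPKM counts the fragments of a gene, scaled by transcript length and library size. Mitochondrially encoded transcripts made up 3.79% of all counts in shESE1 and 12.4% in shCtrl, which shifts the scale on which all remaining genes are measured. Differences are given as the log2 change, log2((shESE1 FPKM + 1)/(shCtrl FPKM + 1)), which is negative where shESE1 was lower and understates the difference of low genes. They were set beside those of the 12520 genes that reached 1 FPKM in one library or both, whose median log2 change was 0.02. That median was −0.10 without mitochondrial genes in the totals and 0.20 as TPM (transcripts scaled to a fixed sum per library), so small differences depend on the scaling. Of 6 epithelial markers all were compared, 4 above 0 and 2 below, with *KRT19* and *KRT7* at 606 and 435 FPKM in shESE1 and 464 and 336 FPKM in shCtrl. *EPCAM* had a log2 change of −0.10, and *CDH1*, for E-cadherin, was past 2-fold at 6.95 FPKM in shESE1 and 16.3 FPKM in shCtrl (−1.13). The immune marker *PTPRC* and the fibroblast markers *COL1A2* and *DCN* had 0 counts in both libraries. Of the 6 immune and 6 fibroblast markers, 1 each was compared, *CD68* at 7.94 FPKM in shESE1 and 3.70 FPKM in shCtrl and *COL1A1* at 2.25 and 4.53 FPKM. *CD68* shared 89.9% of its sequence with another listed gene, and summed with it had 2343 counts in shESE1 and 2085 in shCtrl, a log2 ratio of 0.04. The part of these markers in the values below was not tested.

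Of the 10 genes, 9 passed the minimum of 1 FPKM, and *HEPH* did not. Past 2-fold, 1 of the 9 (*CP*) was lower in L3.6-shESE1 cells and 0 were higher, beside 3.26% lower and 3.14% higher among all genes compared. The genes past 2-fold over all genes compared were 408 lower and 393 higher. This split was 873 lower and 1432 higher as TPM, 568 and 293 without mitochondrial genes in the totals, and 1021 and 622 as counts scaled to the library totals. The other 8 genes lay between −0.39 and 0.39 in log2, and the median of the 9 was −0.12, or −0.11 without *CP*, and 0.10 as TPM. In order of FPKM in shCtrl the 9 genes were *FTH1*, *FTL*, *TFRC*, *NCOA4*, *CP*, *IREB2*, *SLC11A2*, *ACO1* and *SLC40A1*. In shESE1 cells *CP* stood below *IREB2*, *ACO1* and *SLC11A2*, *ACO1* stood just above *SLC11A2*, and the order was otherwise the same.

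**Figure D1:**
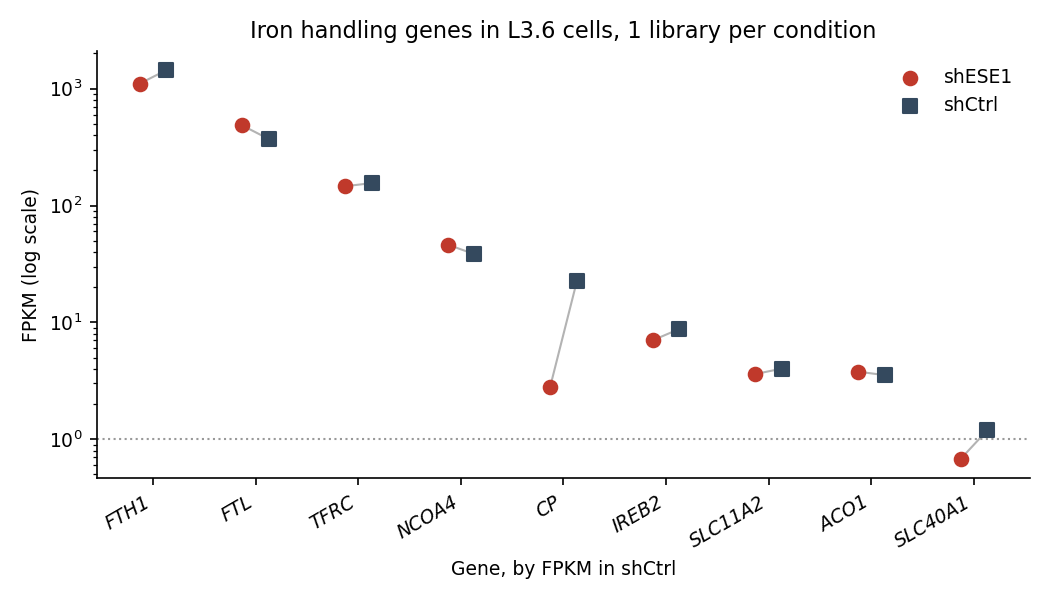
FPKM (log axis) of the 9 iron handling genes compared, in shESE1 (circles) and shCtrl (squares), 1 library each, ordered by the shCtrl level. The dotted line marks 1 FPKM. *CP* was at 2.80 FPKM in shESE1 and 22.4 FPKM in shCtrl, and every other pair lies within 2-fold.

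*CP* (ENSG00000047457; chromosome 3, 149162410 to 149221827, minus strand, GRCh38) encodes ceruloplasmin, the copper-carrying ferroxidase of plasma, which the liver secretes and which rises in inflammation. *CP* was at 2.80 FPKM in shESE1 cells and 22.4 FPKM in shCtrl cells, from 1461 and 10692 counts. This was 8.00-fold lower, a log2 ratio of −3.00 without a pseudocount (95% interval −3.08 to −2.92), and with the pseudocount the log2 change was −2.62. *CP* was the 8210th most abundant gene in shESE1 and the 1653rd in shCtrl. Only 20 of the 12520 genes compared had a lower log2 change, among them 11 genes with a protein-coding transcript. *CP* thus lay near the low end of all genes, whereas the other iron handling genes lay among the bulk of them. The log2 change was between −2.96 and −1.81 under all 10 alternatives run for it, with the pseudocounts of 0.1 and 5 at the ends, and −2.58 when centred on genes of like transcript length.

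**Figure D2:**
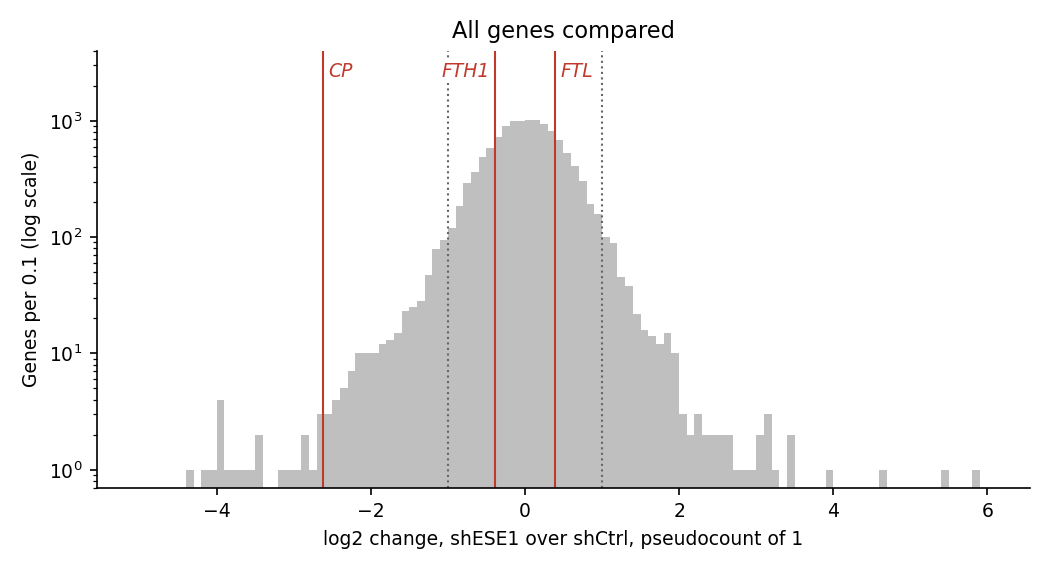
Number of genes (log axis) by log2 change between shESE1 and shCtrl for the 12520 genes compared. Red lines mark *CP* at −2.62, *FTH1* at −0.38 and *FTL* at 0.39, and dotted lines mark 2-fold; 20 genes lie left of *CP*.

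The 3′ part of *CP* overlaps *HPS3*, a gene of lysosome-related organelles on the other strand, over 10552 bases. *HPS3* was at 7.49 FPKM in shESE1 and 8.64 FPKM in shCtrl, a log2 change of −0.18. The libraries were made strand-specific, and whether the counting used the strand is not given in the sources used here, so reads of the overlap may not be told apart. *CP* shared 1.31% of its sequence with other genes, measured in words of 100 bases. Hepatocytes are the main source of ceruloplasmin in the body, and of 7 hepatocyte markers 5, *ALB* and *TTR* among them, had 0 counts in both libraries. The summed level of the 7 was 0.0290 FPKM in shESE1 and 0.150 FPKM in shCtrl, with 0 and 8 counts of *APOA2*. Hepatocyte transcripts were thus at or near 0 in both libraries.

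*HEPH* (chromosome X, 66162549 to 66268867, plus strand) encodes hephaestin, the membrane-bound ferroxidase of the intestine. It had 0 counts in both libraries, which allows a share of up to 4.94e-06% of the counts in shESE1 and 5.28e-06% in shCtrl. Its relative *HEPHL1* had 10 counts in shESE1 and 3 in shCtrl. Of these 3 ferroxidase genes, *CP* was thus the one with more than 10 counts in either library. Multicopper ferroxidases need copper. Of the 10 genes listed for ferroxidases and copper supply 6 were compared, 1 lower (*CP*) and 0 higher past 2-fold, with a median of −0.02. The copper importer gene *SLC31A1* had 7535 counts in shESE1 and 6607 in shCtrl, a log2 change of 0.06 in FPKM. *ATOX1*, which encodes the chaperone that hands copper to the secretory pathway, was at 12.7 FPKM in shESE1 and 8.45 FPKM in shCtrl. *COX17*, for the mitochondrial copper chaperone, was at 30.9 and 20.7 FPKM. *SLC31A1* thus lay near the median of all genes, and *ATOX1* and *COX17* above it.

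The ferritin genes were the most abundant of the 10 and went in opposite directions. *FTH1* encodes the ferritin heavy chain, which oxidises iron as it enters the shell, and *FTL* encodes the light chain, which helps the iron core to form. *FTH1* (chromosome 11, 61959718 to 61967634, minus strand) was at 1103 FPKM in shESE1 and 1439 FPKM in shCtrl, and was the 20th most abundant gene in both. Its log2 change was −0.38 (95% interval of the ratio −0.39 to −0.37), from 162214 and 194038 counts. *FTL* (chromosome 19, 48965309 to 48966879, plus strand) was at 484 FPKM in shESE1 and 370 FPKM in shCtrl. Its log2 change was 0.39 (interval 0.36 to 0.41), from 30956 and 21697 counts. Neither passed 2-fold, and each kept its sign under all 11 alternatives run for it, though the size moved. *FTH1* ran from −0.58 when centred on genes of like transcript length to −0.12 as TPM, and *FTL* from 0.19 to 0.65 under the same settings.
The heavy and light chains of a library share the same scaling, so their ratio does not depend on it. The ratio of *FTH1* to *FTL* in FPKM was 2.28 in shESE1 and 3.89 in shCtrl, 1.71-fold lower, with a log2 change of −0.77 and a counting interval of −0.80 to −0.74. The light chain made up 30.5% of the summed ferritin FPKM in shESE1 and 20.5% in shCtrl. The sum itself was 1588 FPKM in shESE1 and 1809 FPKM in shCtrl, a log2 change of −0.19. The heavy chain thus gave most ferritin transcripts in both libraries, by a smaller margin in shESE1. Both mRNAs hold the IRE shown above, before the coding region.

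**Figure D3:**
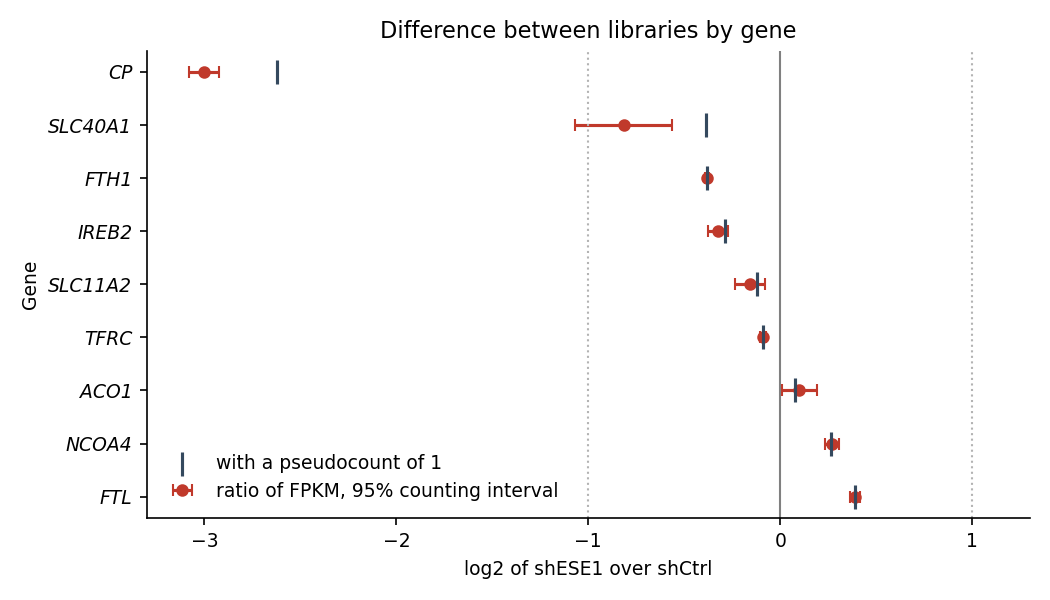
log2 of shESE1 over shCtrl for the 9 genes compared. Circles give the ratio of FPKM without a pseudocount with 95% intervals for counting error, bars the log2 change with a pseudocount of 1, and dotted lines 2-fold. *CP* lies at −3.00, *FTH1* at −0.38 and *FTL* at 0.39, and *SLC40A1* has the widest interval.

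*FTH1* has many processed copies in the genome, and reads may be divided among them. Of 24 listed *FTH1* copies, 16 had counts, which summed to 9958 in shESE1 and 7368 in shCtrl. These were 5.78% and 3.66% of the counts of *FTH1* and its copies together. The most counts were found for *FTH1P11* (1917 in shESE1 and 1398 in shCtrl), *FTH1P8* (1651 and 1538) and *FTH1P2* (1771 and 1347). Summed with its copies *FTH1* had a log2 ratio of −0.35, so the difference was almost as large with them. *FTH1* shared 20.4% of its sequence with other genes and *FTL* 3.85%, so the count of *FTH1* is the less certain. The 16 listed *FTL* copies had 41 counts in shESE1 and 40 in shCtrl, and the sum with *FTL* again gave 0.39.

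*NCOA4* (chromosome 10, 46005088 to 46030714, minus strand) encodes the receptor that takes ferritin to the lysosome, where its iron is released. It was at 46.3 FPKM in shESE1 and 38.4 FPKM in shCtrl, from 13867 and 10550 counts, with a log2 change of 0.26 (interval of the ratio 0.23 to 0.31). The value ran from 0.13 without mitochondrial genes in the totals to 0.53 as TPM, always above 0. Of the 8 genes listed for storage, iron chaperones and ferritin turnover, 7 were compared and 0 passed 2-fold, with a median of −0.09. *PCBP1*, for a chaperone that delivers iron to ferritin, was at 241 FPKM in shESE1 and 153 FPKM in shCtrl (0.65), whereas its relative *PCBP2* was at 55.9 and 59.5 FPKM (−0.09). *FTMT*, the mitochondrial ferritin gene, had 0 counts in both libraries.

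*TFRC* encodes transferrin receptor 1, the main route of iron into growing cells, and was the most abundant of the uptake genes. *TFRC* (chromosome 3, 196027183 to 196082096, minus strand) was at 146 FPKM in shESE1 and 155 FPKM in shCtrl, from 83546 and 81562 counts. The log2 change was −0.09 (interval of the ratio −0.10 to −0.08), and as TPM it was 0.18, so even its sign depended on the scaling. This mRNA, with 4 sites of the searched form after its coding region, therefore differed by 1.06-fold between the libraries. The level of *TFRC* relative to summed ferritin was 0.0920 in shESE1 and 0.0860 in shCtrl.
*SLC11A2* (chromosome 12, 50979401 to 51028566, minus strand) encodes DMT1, which carries ferrous iron from endosomes into the cytosol. It was at 3.62 FPKM in shESE1 and 4.03 FPKM in shCtrl, from 2630 and 2691 counts, with a log2 change of −0.12 (interval of the ratio −0.23 to −0.08) that was 0.10 as TPM. No stem-loop of the searched form was found in *SLC11A2*.
Of the 17 genes listed for uptake and reduction, 11 were compared, 1 lower and 0 higher past 2-fold, with a median of −0.08. The lower gene was *STEAP4*, for a ferric and cupric reductase, at 0.999 FPKM in shESE1 and 3.52 FPKM in shCtrl, from 825 and 2666 counts (log2 change −1.18). *STEAP4* passed the minimum only through shCtrl. It was within 2-fold with a pseudocount of 5 and when centred on genes of like transcript length (−0.94). *SLC39A14*, for the carrier ZIP14 of iron and zinc, was at 13.4 FPKM in shESE1 and 7.17 FPKM in shCtrl (0.82), and *STEAP1*, of the same family as *STEAP4*, at 6.99 and 5.05 FPKM (0.40). Uptake genes thus lay on both sides, and the receptor itself differed little.

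*SLC40A1* encodes ferroportin, the iron exporter that works together with ceruloplasmin and is degraded when hepcidin binds. *SLC40A1* (chromosome 2, 189560590 to 189583758, minus strand) was at 0.679 FPKM in shESE1 and 1.20 FPKM in shCtrl, from 211 and 341 counts. It was 1.76-fold lower, with a log2 ratio of −0.82 and a wide interval of −1.07 to −0.56, and a log2 change of −0.39 with the pseudocount. It passed the minimum only through shCtrl, where it stood just above 1 FPKM. The exporter transcript was thus scarce in both libraries.
Of the 9 genes listed for export and the hepcidin axis, 3 were compared, 1 lower and 0 higher past 2-fold. The lower gene was *HFE*, whose product binds the transferrin receptor and takes part in hepcidin control in the liver. *HFE* was at 0.644 FPKM in shESE1 and 2.49 FPKM in shCtrl, from 271 and 955 counts, with a log2 ratio of −1.95 (−2.15 to −1.75) and a log2 change of −1.09. *HFE* passed the minimum only through shCtrl, and was within 2-fold once the pseudocount was raised to 5. *FLVCR1*, for a transporter long described as a heme exporter, was at 3.16 FPKM in shESE1 and 2.21 FPKM in shCtrl (0.37). The hepcidin gene *HAMP* had 4 counts in shESE1 and 5 in shCtrl.

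The iron sensors showed small differences. *IREB2* (chromosome 15, 78437431 to 78498209, plus strand), for IRP2, which is degraded when iron is plentiful, was at 7.03 FPKM in shESE1 and 8.79 FPKM in shCtrl, from 5573 and 6397 counts. Its log2 change was −0.29 (interval of the ratio −0.38 to −0.27), and it ran from −0.41 without mitochondrial genes in the totals to −0.06 as TPM. *ACO1* (chromosome 9, 32384603 to 32450836, plus strand), for IRP1, which is a cytosolic aconitase while it holds an iron-sulfur cluster, was at 3.79 FPKM in shESE1 and 3.54 FPKM in shCtrl, from 2100 and 1801 counts. Its log2 change was 0.08 (interval of the ratio 0.01 to 0.19), and −0.03 without mitochondrial genes in the totals. *IREB2* was thus the more abundant sensor transcript in both libraries.
Of the 10 genes listed for IRP control and other mRNAs with IREs, 8 were compared and 0 passed 2-fold, with a median of −0.16. *SKP1*, for a subunit of the ubiquitin ligase that removes IRP2, was at 14.2 FPKM in shESE1 and 11.1 FPKM in shCtrl (0.34), and *EPAS1*, for the hypoxia-inducible factor HIF-2α, at 11.5 and 14.2 FPKM (−0.27).

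The genes that use iron lay mostly higher in shESE1, within 2-fold. Of 19 genes listed for mitochondrial iron and iron-sulfur cluster assembly, all were compared, 14 were above 0, beside 51.5% of all genes compared, and 0 passed 2-fold in either direction. The median log2 change was 0.29, beside 0.02 for all genes, and was 0.17 with a pseudocount of 5 and 0.59 as TPM, where that of all genes was 0.20. *GLRX5*, for a glutaredoxin of cluster transfer, was at 28.7 FPKM in shESE1 and 14.6 FPKM in shCtrl (0.92). *HSPA9*, for the chaperone mortalin, was at 86.2 and 76.3 FPKM (0.17), and *NFU1*, for a late cluster carrier, at 16.8 and 19.1 FPKM (−0.17).
Of 10 genes of cytosolic cluster assembly, 9 were above 0 and 0 passed 2-fold, with a median of 0.53, or 0.80 as TPM. *CIAO2B* and *CIAO2A*, of the complex that hands clusters to target proteins, were at 44.8 and 35.2 FPKM in shESE1 and 28.7 and 23.8 FPKM in shCtrl (0.63 and 0.55). *GLRX3*, for a cytosolic glutaredoxin, was at 31.2 and 21.7 FPKM (0.51). The exception was *MMS19* at −0.22. Transcripts of these genes were short, with a median length of 2366 bases beside 3178 for all genes compared and 4262 for the uptake genes. That of the mitochondrial list was 3012 bases, near that of all genes. After centring on genes of like length the median log2 changes were 0.41 for cytosolic and 0.26 for mitochondrial assembly. The part of transcript length in what remained was not tested.
Of 10 heme synthesis genes 7 were above 0, 0 were lower and 1 was higher past 2-fold, with a median of 0.21 that was 0.10 with a pseudocount of 5 and 0.50 as TPM. The higher gene was *TMEM14C*, for a mitochondrial membrane protein needed to bring a heme precursor inward, at 173 FPKM in shESE1 and 68.7 FPKM in shCtrl, from 16754 and 6114 counts (1.32, interval of the ratio 1.29 to 1.37). *ALAS1*, for the first enzyme of the pathway, was at 25.4 FPKM in shESE1 and 28.9 FPKM in shCtrl (−0.18). *UROD*, for a later enzyme, was at 22.7 FPKM in shESE1 and 14.1 FPKM in shCtrl (0.65). Of 10 genes of heme breakdown and scavenging, 6 were compared and 0 passed 2-fold, with a median of 0.06. *BLVRA* and *BLVRB*, the biliverdin reductase genes, and *HMOX2*, for the constitutive heme oxygenase, had log2 changes of 0.30, 0.10 and 0.69. The 2 genes of this list below 0 were *LRP1* at −0.92 and *SLC48A1* at −0.05, and *LRP1* passed the minimum only through shCtrl.

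**Figure D4:**
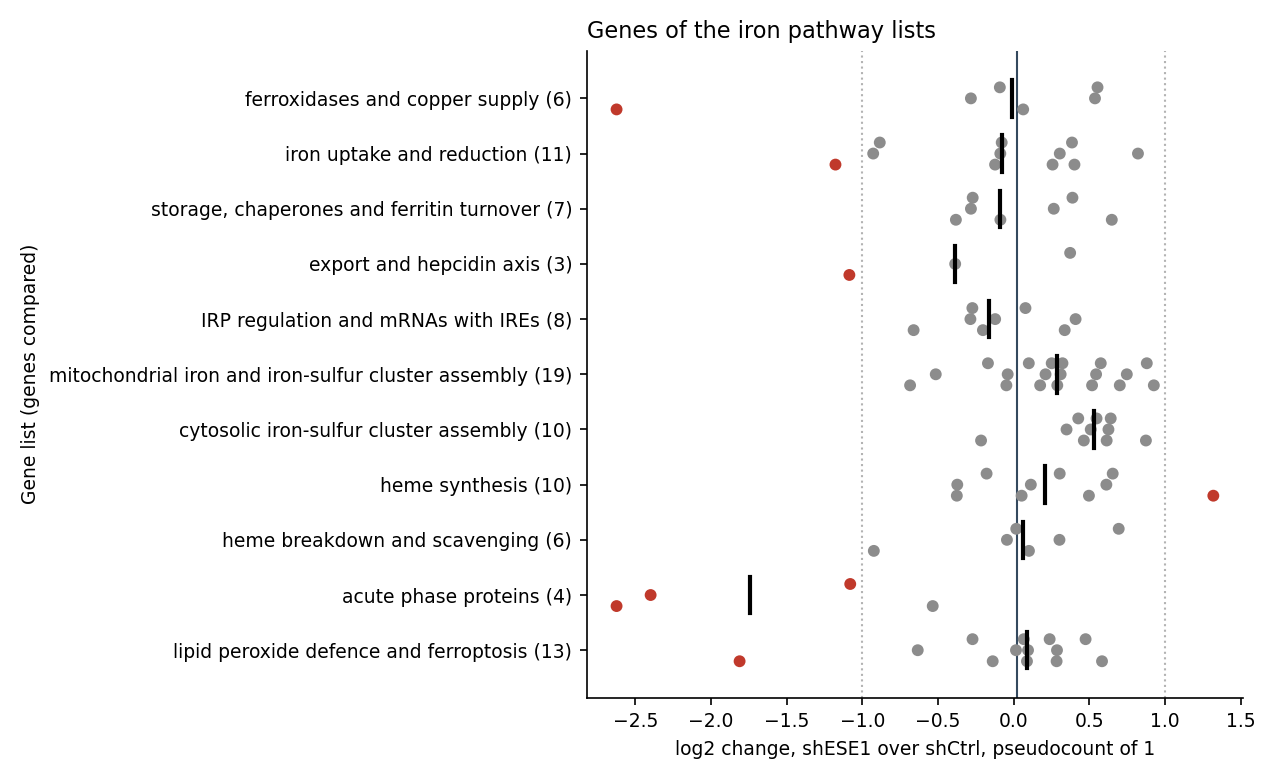
log2 change of each compared gene (points, red at 2-fold or more) in 11 gene lists, with the list median (black bars). The vertical line is the median of all genes compared, 0.02, and dotted lines mark 2-fold. *CP*, at −2.62, stands in the ferroxidase and the acute phase lists, and the medians of cytosolic and mitochondrial cluster assembly lie at 0.53 and 0.29.

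Over the 9 iron lists together, 103 genes were listed and 80 compared, of which 3 (3.75%) were at least 2-fold lower, *CP*, *HFE* and *STEAP4*, and 1 (1.25%), *TMEM14C*, was higher. The background was 3.26% and 3.14%, and the share in the higher direction rests on 1 gene. In the lower direction *HFE* and *STEAP4* passed the minimum only through shCtrl, the library where they were higher. At 1.5-fold 14 of the 80 iron genes were higher and 8 lower, beside 1526 higher and 1444 lower of all 12520. As TPM 8 of 87 were higher and 5 lower past 2-fold, beside 1432 higher and 873 lower of 16416. The median log2 change of the 80 iron genes in FPKM was 0.23, and as TPM that of the 87 was 0.44.

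Ceruloplasmin is also an acute phase protein, one of the plasma proteins whose levels rise in inflammation. Of 20 acute phase genes 4 were compared, and 3 of these were at least 2-fold lower and 0 higher, with a median of −1.74, beside 3.26% lower and 3.14% higher among all genes. *CP* is 1 of the 3, and with every gene of at least 1 count the median of the list was −0.07. *LCN2*, for lipocalin 2, which binds the iron-carrying siderophores of bacteria, was at 3.41 FPKM in shESE1 and 22.3 FPKM in shCtrl, from 402 and 2394 counts. It was 6.53-fold lower, with a log2 ratio of −2.71 (−2.86 to −2.55) and a log2 change of −2.40. *C3*, for the central complement component, was at 19.1 FPKM in shESE1 and 41.4 FPKM in shCtrl (−1.08). *SERPINA1*, for α1-antitrypsin, was at 0.444 FPKM in shESE1 and 1.09 FPKM in shCtrl (−0.54), and passed the minimum only through shCtrl. The other 16 were below 1 FPKM in both libraries, 8 of them, such as *HP* and *HPX*, with 0 counts. *SAA1*, for serum amyloid A, had 26 counts in shESE1 and 14 in shCtrl, with an interval of the log2 ratio of −0.20 to 1.84. It shared 37.9% of its sequence with other genes, and summed with them had 26 counts in shESE1 and 24 in shCtrl, a log2 ratio of −0.01. The others of the 16 with counts had fewer in shESE1 than in shCtrl, but at most 17 in either library. Among all listed genes, 23027 had counts in shESE1 and 24322 in shCtrl. *SAA2*, *SERPINA3*, *CFB* and *ITIH4* shared 18.3%, 55.6%, 77.6% and 77.8% of their sequence with other genes. Summed with those genes, *SAA2* had 26 counts in shESE1 and 24 in shCtrl, while *SERPINA3*, *CFB* and *ITIH4* still had fewer in shESE1.

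The pattern of *CP* over the 2 libraries was most like that of *LCN2*, at a distance of 0.21 in log2(FPKM + 1). The next were *CTH* (0.49), *SLC7A11* (0.60), *CHAC1* (0.64) and *VAMP7* (0.72), out of all genes with a protein-coding transcript. *CTH*, for the enzyme that makes cysteine from cystathionine, was at 4.23 FPKM in shESE1 and 25.3 FPKM in shCtrl. *SLC7A11* encodes the cystine importer xCT, and *CHAC1* an enzyme that breaks down glutathione. They were at 3.61 and 3.88 FPKM in shESE1 and 15.2 and 15.2 FPKM in shCtrl. Likeness over 2 libraries says only that their levels were close in each.
*SLC7A11* also belongs to the 15 genes listed for lipid peroxide defence and ferroptosis, an iron-dependent form of cell death. Of 13 compared, *SLC7A11* was lower past 2-fold (log2 change −1.81) and 0 were higher, with a median of 0.09. *GPX4*, for the enzyme that removes lipid peroxides, was at 132 FPKM in shESE1 and 94.6 FPKM in shCtrl (0.47). *SLC3A2*, for the partner chain of xCT, was at 57.4 and 69.5 FPKM (−0.27), and *ACSL4*, for an enzyme that activates polyunsaturated fatty acids, at 25.8 and 40.6 FPKM (−0.63). The importer chain thus stood apart from the rest of its list.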

How the data were processed

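Per the labels, poly(A) RNA of L3.6 cells was made into strand-specific libraries and sequenced as paired reads. For each gene the table deposited by the authors holds FPKM, where genes without reads stand at 0.0001 and were set to 0. It also holds raw read counts as deposited, in whole numbers. Tools listed by the submitters' processing notes were StringTie, HISAT2 and fastp, with GRCh38 and mm10 as builds. Their versions, their roles and the counting tool are not stated there. Gene positions are those of GRCh38. The members and lists were chosen with earlier results of these data known.

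Log2 changes used a pseudocount of 1, a minimum of 1 FPKM in either library and a fold of 2. No test was run, with 1 library per condition. Each 95% interval of a ratio came from the exact Clopper-Pearson interval of the shESE1 share of a gene's counts, moved to the FPKM scale. That of the ferritin ratio came from the normal approximation for log counts. A count of 0 was read against 3 counts. Of each list, genes past 2-fold and up to 3 others with the most FPKM were named, while all 10 members are described. *HEPHL1*, *PCBP2*, *FTMT*, *HAMP*, *SAA1*, *SAA2*, *SERPINA3*, *CFB*, *ITIH4*, *LRP1*, *SLC48A1* and *MMS19* were named outside this rule, after their values were seen. Some genes that the rule names are not reported here. The 5 genes most like *CP* had the smallest distance in log2(FPKM + 1). Shared sequence was measured on the longest transcript of a gene, in words of 100 bases taken every 10 bases. Alternatives were other pseudocounts, filters, scalings and folds, and centring in 10 groups of transcript length. Calculations used Python 3.11.15, numpy 2.4.6, scipy 1.17.1, pandas 2.3.3, matplotlib 3.10.9 and, for TMM scaling, edgeR 4.0.16 in R 4.3.3.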

Additional observations from a re-analysis of the deposited data

How the results depend on the processing

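No paired analysis was possible because each condition had 1 library, and for the same reason no replicate could be left out. *CP* remained the 1 gene of the 10 past 2-fold under all 11 alternatives run for the count, and its log2 change was −2.96 and −1.81 with pseudocounts of 0.1 and 5, −2.87 and −2.92 as CPM with and without TMM scaling, and −2.77 without mitochondrial genes in the totals. Among all genes, those lower and higher past 2-fold were 958 and 644 with a pseudocount of 0.1, 110 and 142 with 5, 945 and 686 as CPM with TMM scaling, 1021 and 622 as CPM of the totals, 873 and 1432 as TPM, and 1444 and 1526 at 1.5-fold; 230 were lower with a filter of 5 FPKM. Of the iron list genes, those lower were 6 with a pseudocount of 0.1, 1 with 5, 1 with a filter of 5 FPKM, 6 and 7 as CPM with and without TMM scaling, 5 without mitochondrial genes, 5 as TPM and 8 at 1.5-fold, and those higher were 3 and 2 as CPM with and without TMM scaling, 8 as TPM and 14 at 1.5-fold. The iron genes compared were 80 of 12520 with other pseudocounts and at 1.5-fold, and 59 of 6764 with a filter of 5 FPKM. They were 88 of 15224 and 88 of 15238 as CPM with and without TMM scaling. Without mitochondrial genes they were 81 of 12842, where 568 of all genes were lower, and as TPM 87 of 16416. The median of the iron list genes was 0.11 with a pseudocount of 5, 0.10 with no filter beyond 1 count, 0.12 without mitochondrial genes and 0.44 as TPM. *TFRC* and *SLC11A2* had the other sign as TPM and *ACO1* without mitochondrial genes, while *FTH1*, *FTL*, *NCOA4*, *IREB2* and *SLC40A1* kept theirs. As TPM the medians of uptake (0.12), storage (0.17), export (0.14), IRP (0.04) and ferroxidase genes (0.24) were above 0, and without mitochondrial genes that of heme breakdown was −0.06. The ferroxidase median was also above 0 with no filter beyond 1 count (0.02), a filter of 5 FPKM (0.06), CPM with and without TMM scaling (0.05 and 0.01) and length centring (0.03), the uptake median with a filter of 5 FPKM (0.16) and the export median with no filter beyond 1 count (0.003). The acute phase median was −0.84 as TPM and −0.07 with no filter beyond 1 count. The export list gave no median with a filter of 5 FPKM. Centring on transcript length was chosen after seeing the data. Among the 10 genes, low counts gave *SLC40A1* a wide interval and left *HEPH* undetected.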

Other observations

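Some iron genes lay below 1 FPKM in both libraries and so entered no list count with the minimum of 1 FPKM. *LRP2* and *ABCG2* were counted under some other scalings, and with no filter beyond 1 count 95 iron genes were compared, beside 80 with the minimum. The genes named here were chosen after their values were seen. *LRP2*, for megalin, an endocytic receptor of the kidney that takes up lipocalin 2 among other ligands, had 36 counts in shESE1 and 256 in shCtrl, a log2 ratio of −2.97 (95% interval −3.51 to −2.46). *BMP6*, for the liver signal that induces hepcidin, had 47 counts in shESE1 and 8 in shCtrl, a log2 ratio of 2.50 (1.40 to 3.79). *ABCG2*, for an exporter of porphyrins and drugs, had 239 counts in shESE1 and 61 in shCtrl, a log2 ratio of 1.85 (1.44 to 2.28). *HMOX1*, for the inducible heme oxygenase, had 83 counts in shESE1 and 104 in shCtrl, a log2 ratio of −0.46 (−0.89 to −0.03).

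Further genes, also chosen after their values were seen, stayed within 2-fold on the scale with the pseudocount. *CYBRD1*, for a ferric reductase of the duodenum, was at 3.82 FPKM in shESE1 and 8.17 FPKM in shCtrl, a log2 ratio of −1.10 (−1.19 to −1.01). *SCARA5*, for a receptor of ferritin, was at 0.660 FPKM in shESE1 and 2.07 FPKM in shCtrl, a log2 ratio of −1.65 (−1.88 to −1.42). *LRP1*, the receptor of hemopexin and many other ligands, was at 0.726 FPKM in shESE1 and 2.28 FPKM in shCtrl, a log2 ratio of −1.65 (−1.75 to −1.55). Both *SCARA5* and *LRP1* passed the minimum only through shCtrl, the library where they were higher.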
